A study of Mus musculus with 7 samples.

Results

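A set of 10 transcription regulators that mark or direct the lineages of the mammary gland were examined in sorted fetal mammary cells: Elf5, Elf3, Ehf, Gata3, Foxa1, Cited1, Tbx3, Trp63, Bcl11a and Bcl11b. The members were taken as a named list and found through their Ensembl identifiers, and each of the 10 had exactly 1 entry among the 38579 gene entries of the deposited table. In the adult gland 7 of them are known as luminal or luminal-progenitor factors (Elf5, Elf3, Ehf, Gata3, Foxa1, Cited1, Tbx3), 2 as basal factors (Trp63, Bcl11b) and 1 as a progenitor factor (Bcl11a). RNA came from freshly sorted primary cells of CD1 mice late in gestation (E17.5), in 7 libraries, each from a bulk population. Fractions enriched for fetal mammary stem cells (fMaSC) were sorted as Sox10-Venus-positive, EpCAM-positive cells (Sox10+EpCAM+ fMaSC, 2 libraries) or as CD24-positive, CD49f-positive, lineage-negative cells (CD24+CD49f+ fMaSC, 2 libraries). Stroma was sorted as EpCAM-negative cells, also Sox10-negative and lineage-negative by their title (EpCAM-negative stroma, 1 library), or as CD24-low, lineage-negative cells (CD24low stroma, 2 libraries). Venus is a fluorescent protein that reports Sox10, so the Sox10+EpCAM+ fraction was selected on a reporter that the labels do not give for the CD24 sort. Levels are FPKM, fragments per kilobase of transcript per 1e6 fragments, a unit that adjusts for transcript length and so allows levels of different genes to be set side by side.

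The adult mammary duct has an inner luminal layer, which holds hormone-sensing cells and the progenitors of milk-producing cells, and an outer basal or myoepithelial layer. Gata3 and Foxa1 are known for the luminal and hormone-sensing programme, Elf5 for the alveolar progenitors, and the p63 protein encoded by Trp63 for the basal layer. These programmes are largely kept in separate cells in the adult, whereas fetal mammary cells are known to carry features of both. In bulk RNA the presence of 2 factors in 1 library does not show that they occur in the same cell, and fewer cells of a type and less RNA per cell cannot be told apart.

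The annotation of GRCm38 places Ehf and Elf5, both of which encode epithelial ETS-domain factors, next to each other on chromosome 2. Ehf (103263433 to 103303278, minus strand) and Elf5 (103411688 to 103450989, plus strand) point away from each other across a gap of 108.41 kb with 0 protein-coding genes in between. RefSeq promoter windows of GRCm38.p6, from 250 bases before to 50 bases after an annotated start, were at hand for 7 of the 10 members (10 windows). Ehf, Trp63 and Tbx3 were not among them. The windows were searched on both strands for a forkhead motif, TGTTTAC, as bound by factors of the Foxa family. They were also searched on both strands for the GATA motif as TGATAA or as the variant that begins with another base, AGATAA. Other forms such as TGATAG were not searched for. The ETS core was searched on both strands as GGAAG, which can overlap other ETS sites, and the TATA box on the strand of the gene alone as TATAAA. The 250 bases before the start are printed for Foxa1, for the upstream start of Elf5 and for the start of Cited1 at the gene's annotated 5′ end, since these stand for 2 factors near 0 in stroma and for the 1 member that was higher there. Capitals mark the motif matches, and all are written 5′ to 3′ on the gene's strand.
Foxa1, chr12:57546112-57546361, minus strand: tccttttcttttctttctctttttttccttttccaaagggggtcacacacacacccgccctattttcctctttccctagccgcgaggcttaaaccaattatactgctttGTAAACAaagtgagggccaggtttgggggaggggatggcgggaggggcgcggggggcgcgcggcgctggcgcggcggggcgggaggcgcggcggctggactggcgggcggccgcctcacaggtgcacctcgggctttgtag
Elf5, chr2:103411848-103412097, plus strand: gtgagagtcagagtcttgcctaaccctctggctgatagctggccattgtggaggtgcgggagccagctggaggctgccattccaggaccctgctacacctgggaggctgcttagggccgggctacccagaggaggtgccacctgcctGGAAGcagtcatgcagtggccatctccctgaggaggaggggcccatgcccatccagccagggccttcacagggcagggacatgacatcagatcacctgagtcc
Cited1, chrX:102252182-102252431, minus strand: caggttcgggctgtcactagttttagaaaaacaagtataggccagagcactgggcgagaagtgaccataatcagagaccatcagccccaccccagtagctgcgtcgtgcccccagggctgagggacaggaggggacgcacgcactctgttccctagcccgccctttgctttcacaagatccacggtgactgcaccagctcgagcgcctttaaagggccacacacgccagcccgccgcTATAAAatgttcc
Foxa1, itself a forkhead factor, had the only forkhead match of the 10 windows, at position −141 from its start and on the opposite strand; 3.65% of 32851 promoter windows hold this motif. No window of a member held TGATAA or AGATAA, of which at least 1 stands in 18.6% of all windows. The printed Elf5 sequence does hold TGATAG, a form not searched for. The ETS core stood in 1 of 2 Elf5 windows, at position −103, in all 3 Cited1 windows and in the Bcl11a and Bcl11b windows, and it is common, at 71.4% of all windows. For the printed Cited1 window the ETS core lay at position 41, past the printed bases. TATAAA stood in 2 Cited1 windows, at positions −115 and −13 (the latter in the printed window), against 8.32% of all. CpG dinucleotides numbered 26 in the Foxa1 window, 22 in that of Gata3, 12 in that of Elf3 and 3 and 10 in those of Elf5. They numbered 32, 14 and 18 in the Cited1 windows, 23 in that of Bcl11a and 9 in that of Bcl11b. The median over all windows was 7. A match is a description of the sequence and not evidence of binding.

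The depth of the libraries was estimated at 22.1 to 33.8 M fragments (M, 1e6) from their lowest values, and 12790 to 13639 genes reached 1 FPKM. The defining markers went with the labels: Epcam stood at 219, 230, 137 and 88.5 FPKM in the 4 fMaSC libraries and at no more than 1.19 in stroma. The summed level of 6 fibroblast markers (such as Col1a1 and Dcn) was 4994 to 5856 FPKM in stroma, 38.9 and 60.7 in Sox10+EpCAM+ fMaSC, and 1774 and 2658 in CD24+CD49f+ fMaSC. The CD24+CD49f+ libraries thus held far more stroma-type RNA, and replicate 1 also held 6870 FPKM over 6 erythroid markers, against 85.3 to 731 in the other libraries. Epidermal markers summed to between 3.78 and 18.9 FPKM in the 7 libraries, leukocyte markers to between 0.819 and 8.98, T cell markers to between 3.62 and 6.87, B cell markers to between 1.41 and 31.0 and neuron markers to between 1.07 and 16.3. Differences were tested on log2(FPKM + 1) with limma (two-sided, Benjamini-Hochberg adjustment over 14418 genes, threshold 0.05). On this scale the change of genes with low values is understated. All 10 members passed the filter of 1 FPKM in at least 2 libraries, but 7 of them (Elf5, Elf3, Ehf, Gata3, Foxa1, Trp63 and Bcl11b) passed through fMaSC libraries alone and so were largely bound to be higher there. For Bcl11b this did not hold in every library, since CD24+CD49f+ replicate 1 (0.566 FPKM) lay within the stroma range. Rescaling each library to the same sum (TPM) moved the median difference of all genes from 0.13 to −0.12 in the CD24 sort, from 0.09 to −0.63 in the EpCAM sort and from 0.12 to −0.32 over both sorts. Relative to that median, the direction of each of the 10 members against stroma was the same under TPM, TMM and quantile scaling as without scaling.

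Adult luminal factors and the basal factor Trp63 were present together in every fMaSC library. Gata3, Elf5, Ehf, Elf3, Foxa1, Bcl11a and Trp63 were higher in fMaSC in both sorts, all 7 at no more than 1.42 FPKM in stroma. The luminal factors Cited1 and Tbx3 were not low there: Cited1 ran the other way, and Tbx3 and Bcl11b did not pass the test in either. Of the 10 members 7 were higher and 0 lower in the CD24 sort, where 7.78% of all genes tested were higher and 2.94% lower. Cited1 alone was lower there at an unadjusted limma p below the threshold. In the EpCAM sort 7 were higher and 1 lower, against 12.5% and 13.6% of all genes. Over both sorts 7 were higher and 1 lower, against 15.6% and 9.5%. The median log2 difference of the members was 2.06 in the CD24 sort and 2.68 in the EpCAM sort, against 0.13 and 0.09 for all genes tested, and these members were largely bound to lie above 0 through the filter. The lowest fMaSC library lay above the highest stroma library for 7 members, as for 23.3% of all genes tested, and the highest fMaSC library lay below the lowest stroma library for 1, as for 13.7%.

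**Figure D1:**
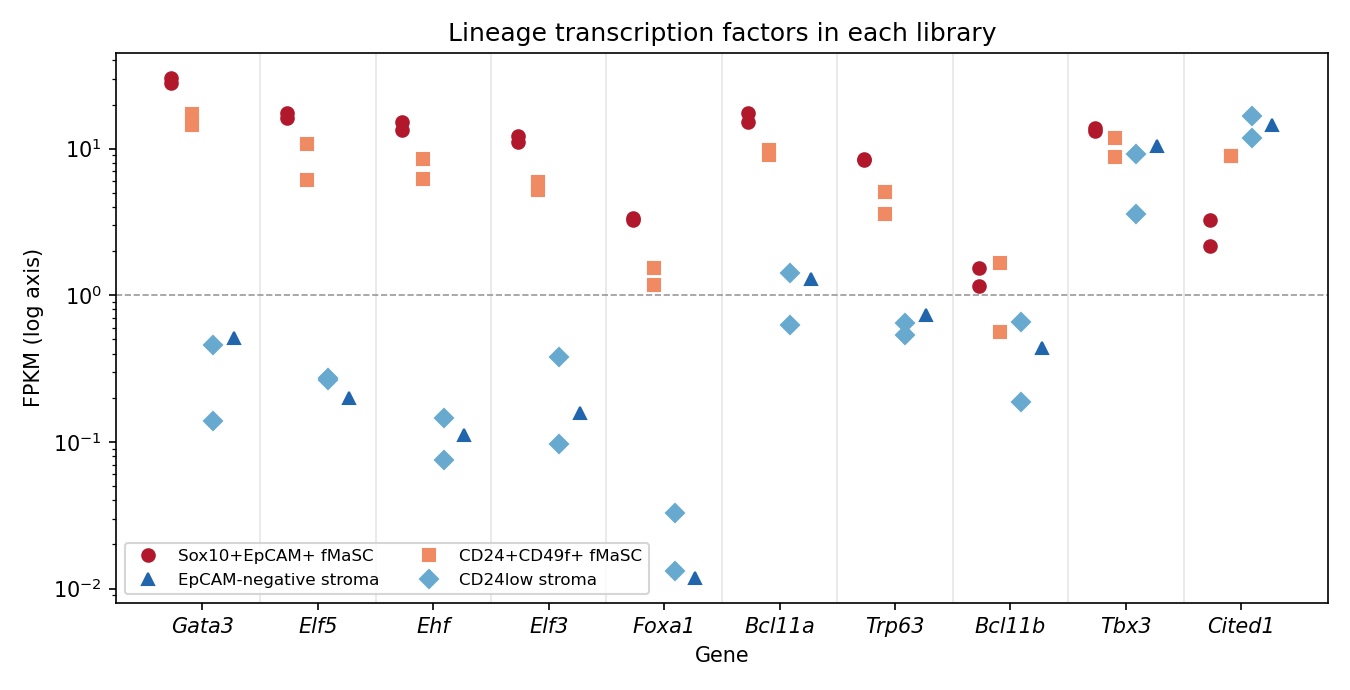
FPKM of the 10 factors in each of the 7 libraries, on a log axis, with 1 point per library and a dashed line at 1 FPKM. For Gata3, Elf5, Ehf, Elf3, Foxa1, Bcl11a and Trp63 all fMaSC points lie above all stroma points, for Tbx3 and Bcl11b they overlap, and for Cited1 all stroma points lie above.

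The 3 ETS factors had closely similar profiles, a trait shared by all 7 members that were higher in fMaSC. The 21 pairs of these 7 members had Pearson's r of 0.967 to 0.998 on log2(FPKM + 1) over the 7 libraries. Such values mainly reflect the gap between fMaSC and stroma. Elf5, which directs the alveolar secretory lineage, reached 16.10 and 17.54 FPKM in the 2 Sox10+EpCAM+ libraries, 10.8 and 6.11 in the 2 CD24+CD49f+ libraries, 0.263 and 0.272 in the CD24low libraries and 0.199 in the EpCAM-negative library. Ehf, an epithelial ETS factor, stood at 13.5, 15.1, 8.51 and 6.25 FPKM in the fMaSC libraries in the same order, and at 0.0751, 0.145 and 0.112 in stroma (the CD24low libraries first). Elf3 (chromosome 1, 135253574 to 135258472), a related factor of simple epithelia, stood at 11.1, 12.1, 5.88 and 5.21 FPKM in fMaSC, and at 0.381, 0.097 and 0.157 in stroma. No stroma library came near an fMaSC library in any of the 3. Elf5 was higher by 2.85 on the log2 scale in the CD24 sort (SE 0.26, limma adjusted p = 0.00216) and by 3.89 in the EpCAM sort (SE 0.32, adjusted p = 0.000711). Ehf was higher by 2.90 (SE 0.19, limma adjusted p = 0.000787) and 3.78 (SE 0.24, adjusted p = 0.000347), close to its chromosomal neighbour. Elf3 was higher by 2.41 (SE 0.18, limma adjusted p = 0.00121) and 3.45 (SE 0.22, adjusted p = 0.000387).

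Gata3 had the highest level of the 10 factors in each of the 4 fMaSC libraries. This zinc-finger factor, needed for the luminal lineage (chromosome 2, 9857078 to 9890034), reached 28.0 and 30.3 FPKM after the Sox10 and EpCAM sort and 14.6 and 17.1 after the CD24 and CD49f sort. In stroma it was 0.457 and 0.139 (CD24low) and 0.507 (EpCAM-negative). The fMaSC values exceeded those of 71.3% to 85.1% of the genes tested in the same library, and the stroma values exceeded 2.82% to 5.85%. The difference was 3.71 in the CD24 sort (SE 0.19, limma adjusted p = 0.000396) and 4.32 in the EpCAM sort (SE 0.24, adjusted p = 0.000286). Gata3 overlaps 4930412O13Rik on the opposite strand (at most 4.32 FPKM) and 9230102O04Rik on its own strand (at most 3.23 FPKM). Whether the counting used strand is not given in the sources used here, so fragments of overlapping genes may be shared, as also for Elf3 with Gm26642 (at most 1.12 FPKM) and for Tbx3 with Tbx3os1 (at most 2.55 FPKM).

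Foxa1, the forkhead factor that opens chromatin for the oestrogen receptor (chromosome 12, 57540631 to 57546121), was the lowest of the luminal factors that were higher in fMaSC. It measured 3.38 and 3.25 FPKM in the Sox10+EpCAM+ libraries and 1.53 and 1.18 in the CD24+CD49f+ libraries. The stroma values were 0.0329 and 0.0132 (CD24low) and 0.0119 (EpCAM-negative). At the estimated depths the stroma values correspond to about 2.81, 0.935 and 0.945 fragments, and the fMaSC values to between 94.7 and 298. The fitted difference was 1.20 in the CD24 sort (SE 0.15, limma adjusted p = 0.00683) and 2.09 in the EpCAM sort (SE 0.19, adjusted p = 0.000982). With so few stroma fragments these are no measure of the true fold. The CD24-sort call was lost without CD24low stroma replicate 1 (adjusted p = 0.0526) or replicate 2 (adjusted p = 0.0621), while the difference stayed at 1.21 and 1.19 (adjusted p between 0.00268 and 0.0621 over all alternatives).

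Trp63, the basal-layer factor, was higher in the same fMaSC libraries as the luminal factors. Its level was 8.41 and 8.44 FPKM in the Sox10+EpCAM+ libraries, 3.60 and 5.10 in the CD24+CD49f+ libraries, and in stroma 0.532 and 0.649 (CD24low) and 0.733 (EpCAM-negative). The libraries did not overlap, although the stroma levels were further from 0 than those of the ETS factors. The difference was 1.74 in the CD24 sort (SE 0.19, limma adjusted p = 0.00412) and 2.44 in the EpCAM sort (SE 0.23, adjusted p = 0.00118). Under TPM scaling the CD24-sort difference was 1.93 and did not pass (adjusted p = 0.0703, the highest of the alternatives, which went down to 0.00233). The gene (chromosome 16, 25683763 to 25892102) has 4 protein-coding transcripts from an upstream start and 4 from an internal start at 25801916, which encode the long and the amino-terminally shortened forms. The deposited value is 1 number per gene, so it does not separate them.

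Bcl11a and Bcl11b encode paired zinc-finger factors, the first known from luminal progenitors and the second from basal cells. Bcl11a (chromosome 11, 24078056 to 24174123) measured 17.49 and 15.2 FPKM in the Sox10+EpCAM+ libraries, 8.98 and 9.79 in the CD24+CD49f+ libraries, and in stroma 1.42 and 0.624 (CD24low) and 1.28 (EpCAM-negative). It was higher by 2.39 in the CD24 sort (SE 0.23, limma adjusted p = 0.0026) and by 2.92 in the EpCAM sort (SE 0.28, adjusted p = 0.00122). Its relative was far less abundant. Bcl11b (chromosome 12, 107910403 to 108003602) measured 1.17 and 1.52 FPKM in the Sox10+EpCAM+ libraries, 0.566 and 1.67 in the CD24+CD49f+ libraries, and in stroma 0.657 and 0.186 (CD24low) and 0.436 (EpCAM-negative), and CD24+CD49f+ replicate 1 lay within the stroma range. The Bcl11b difference was 0.54 (95% interval −0.20 to 1.28, limma adjusted p = 0.334) in the CD24 sort and 0.70 (−0.20 to 1.61, adjusted p = 0.205) in the EpCAM sort, and 0.61 over both (0.058 to 1.16, adjusted p = 0.0951). The CD24-sort value was 0.93 without CD24+CD49f+ replicate 1, 0.16 without replicate 2 and 0.30 without CD24low stroma replicate 2. Without CD24+CD49f+ replicate 1 the pooled difference was 0.82 and passed (adjusted p = 0.045), and with only the groups compared in the fit the EpCAM-sort difference passed (adjusted p = 0.00921). Over all alternatives adjusted p for Bcl11b reached 0.391 over both sorts and 0.63 in the EpCAM sort. The ratio of Bcl11a to Bcl11b ran from 5.87 to 15.9 in fMaSC and from 2.15 to 3.36 in stroma.

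Tbx3, a T-box factor needed for the earliest mammary placode and retained in hormone-sensing luminal cells (chromosome 5, 119670669 to 119684724), did not separate the fractions. Its level was 13.8 and 13.1 FPKM in the Sox10+EpCAM+ libraries, 8.73 and 11.9 in the CD24+CD49f+ libraries, and in stroma 9.17 and 3.58 (CD24low) and 10.4 (EpCAM-negative). The groups overlapped, and CD24low stroma replicate 2 was the 1 low library. The difference was 0.71 in the CD24 sort (95% interval −0.22 to 1.65, limma adjusted p = 0.315) and 0.35 in the EpCAM sort (−0.79 to 1.49, adjusted p = 0.603). The CD24-sort value was 1.29 without CD24low stroma replicate 1 and 0.14 without replicate 2, and the pooled value went from 0.57 to 0.24 without replicate 2. These intervals allow a difference well above 1 on the log2 scale as well as none.

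Cited1, a transcriptional co-regulator known from oestrogen-responsive luminal cells of the growing gland (chromosome X, 102247381 to 102252181), was higher in stroma. The values were 3.24 and 2.17 FPKM in the Sox10+EpCAM+ libraries, 8.85 and 8.90 in the CD24+CD49f+ libraries, and in stroma 11.8 and 16.7 (CD24low) and 14.5 (EpCAM-negative), so that every stroma library lay above every fMaSC library. In the EpCAM sort it fell by 2.08 on the log2 scale (SE 0.29, limma adjusted p = 0.00397), a 4.23-fold lower value of FPKM + 1. In the CD24 sort the difference was −0.61 (95% interval −1.18 to −0.040, limma adjusted p = 0.171), and −0.38 without CD24low stroma replicate 2. Over both sorts it was −1.20 (SE 0.32, limma adjusted p = 0.0381), a call that ended without any of 5 single libraries. The difference was −1.17 and −1.03 without Sox10+EpCAM+ replicate 1 or 2 (adjusted p = 0.0912 and 0.0843), −1.34 without CD24+CD49f+ replicate 1 (0.0609) and −1.23 without CD24low stroma replicate 2 (0.0701), all near the full value. Without EpCAM-negative stroma it was −0.61 (0.17), and over all alternatives adjusted p ran from 0.00247 to 0.17. The fibroblast markers summed to 38.9 and 60.7 FPKM in Sox10+EpCAM+ fMaSC, where Cited1 was lowest, and to 4994 to 5856 in stroma, where it was highest. Within these fractions the order was not kept. CD24low replicate 1 had the highest marker sum (5856) and the lowest Cited1 level in stroma (11.8). Sox10+EpCAM+ replicate 1 had the lower marker sum (38.9) and the higher Cited1 level (3.24) of its fraction. The part of stroma-type RNA in the Cited1 level of CD24+CD49f+ fMaSC was not tested.

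**Figure D2:**
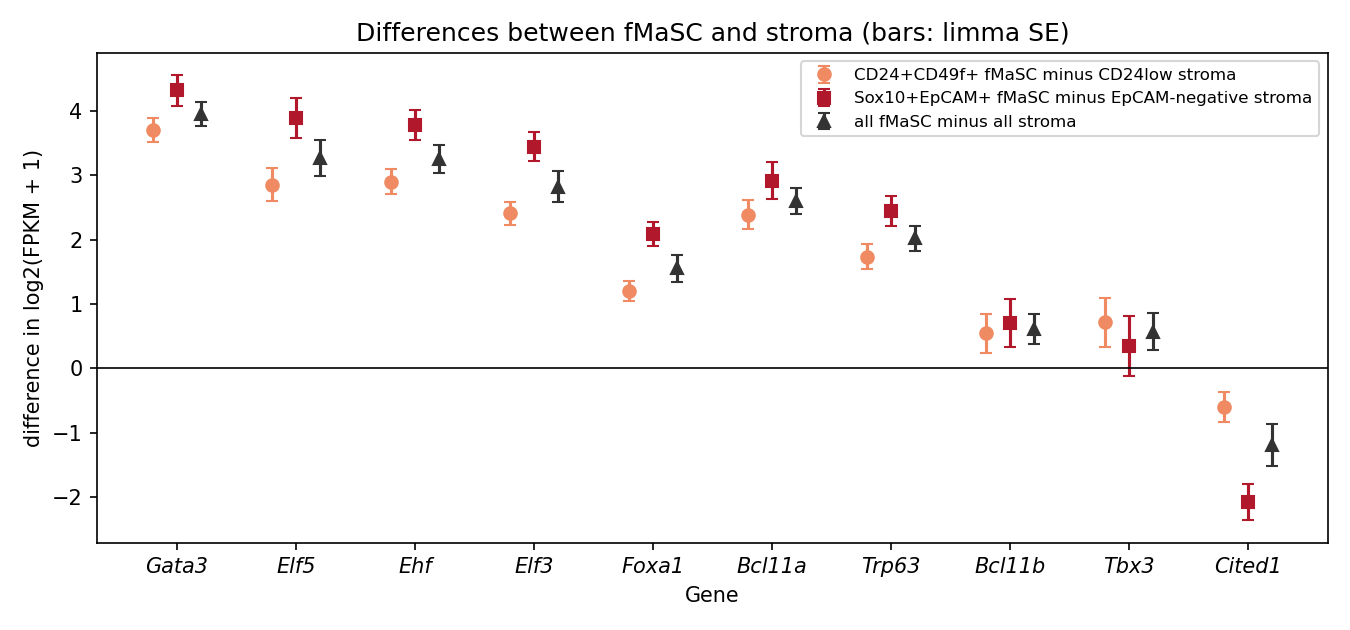
Difference in log2(FPKM + 1) between fMaSC and stroma for each factor in the CD24 sort, in the EpCAM sort and over both, with bars of 1 limma SE. Gata3 has the highest values of the 10 (3.71 and 4.32 in the 2 sorts), and Cited1 is the 1 factor below 0 in all 3.

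The luminal factors that were higher in fMaSC were compared with Trp63 within libraries. Cited1 and Tbx3 on the luminal side and Bcl11b on the basal side were left out. The low sum in stroma therefore follows from that choice. The sum of Elf5, Elf3, Ehf, Gata3 and Foxa1 was 72.1 and 78.4 FPKM in Sox10+EpCAM+ fMaSC, 41.3 and 35.9 in CD24+CD49f+ fMaSC and 0.667 to 1.21 in stroma. Per FPKM of Trp63 this sum was 8.57 and 9.28 in Sox10+EpCAM+ fMaSC and 11.5 and 7.04 in CD24+CD49f+ fMaSC, so that the 2 fractions overlapped. The ratio of Elf5 to Trp63 was 1.91 and 2.08 in the first fraction and 3.01 and 1.20 in the second. Keratins of both layers were present in the same libraries: Krt8 (luminal) at 140, 170, 108 and 59.7 FPKM and Krt14 (basal) at 71.9, 105, 63.9 and 37.2, against at most 1.30 and 1.08 in stroma. In the order of levels Gata3 came first in all 4 fMaSC libraries, Trp63 seventh or eighth, and Foxa1 and Bcl11b among the last 3. Cited1 was ninth in both Sox10+EpCAM+ libraries and in place 4 in both CD24+CD49f+ libraries. Bcl11a, Elf5, Tbx3 and Ehf changed places between replicates (Elf5 from second to sixth within the CD24+CD49f+ fraction) and so have no settled order. In all 3 stroma libraries Cited1 was first and Tbx3 second.

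The factors higher against stroma stood between 0.74 and 0.96 higher on the log2(FPKM + 1) scale in the Sox10+EpCAM+ fraction, and 5 of these 7 passed. With a pseudocount of 0.1 the differences of Foxa1, Elf3 and Elf5 were 1.24, 1.05 and 1.04. Elf3 (0.95), Ehf (0.88), Foxa1 (0.88), Gata3 (0.84) and Trp63 (0.83) were higher in Sox10+EpCAM+ than in CD24+CD49f+ fMaSC (limma adjusted p between 0.0219 and 0.0481), and Cited1 was lower, at −1.43 (adjusted p = 0.0174). Thus 5 members were higher and 1 lower, against 1.95% and 8.04% of all genes tested. Each fraction came from its own sorting strategy, so strategy and any batch cannot be told apart in these calls. Elf5 (0.96, limma adjusted p = 0.076), Bcl11a (0.74, 0.112), Tbx3 (0.37, 0.642) and Bcl11b (0.19, 0.755) did not pass. None of the 5 higher calls remained without Sox10+EpCAM+ replicate 1 or 2 or CD24low stroma replicate 1 or 2. The differences themselves could not change without a CD24low library, since those libraries enter the estimate of the spread and not the differences. They stood between 0.79 and 1.00 without either Sox10+EpCAM+ library. Of the 5, 2 (Foxa1 and Trp63) remained without CD24+CD49f+ replicate 2, and 3 (Elf3, Ehf and Foxa1) remained without CD24+CD49f+ replicate 1, where Elf5 passed as well (1.33, adjusted p = 0.00682). Without CD24+CD49f+ replicate 2 the Elf5 difference was 0.59. The Cited1 call ended without Sox10+EpCAM+ replicate 1 or 2. Fibroblast markers were higher in the CD24+CD49f+ libraries, as given above, and Epcam was lower there. Per 100 FPKM of Epcam, Elf5 stood at 7.34 and 7.62 in Sox10+EpCAM+ fMaSC and 7.89 and 6.90 in CD24+CD49f+ fMaSC. Ehf stood at 6.15 and 6.56 against 6.20 and 7.06, Gata3 at 12.8 and 13.2 against 10.6 and 19.4, and Trp63 at 3.83 and 3.67 against 2.62 and 5.76, so that the fractions overlapped for these 4. Foxa1, at 1.54 and 1.41 against 1.11 and 1.33, did not overlap, nor did Tbx3, at 6.30 and 5.70 against 6.37 and 13.4. Cited1 stayed further apart, at 1.48 and 0.944 against 6.45 and 10.1. Epcam was itself a sorting marker of 1 fraction, so these ratios are a description. The share of all genes that do not overlap on this scale was not computed.

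**Figure D3:**
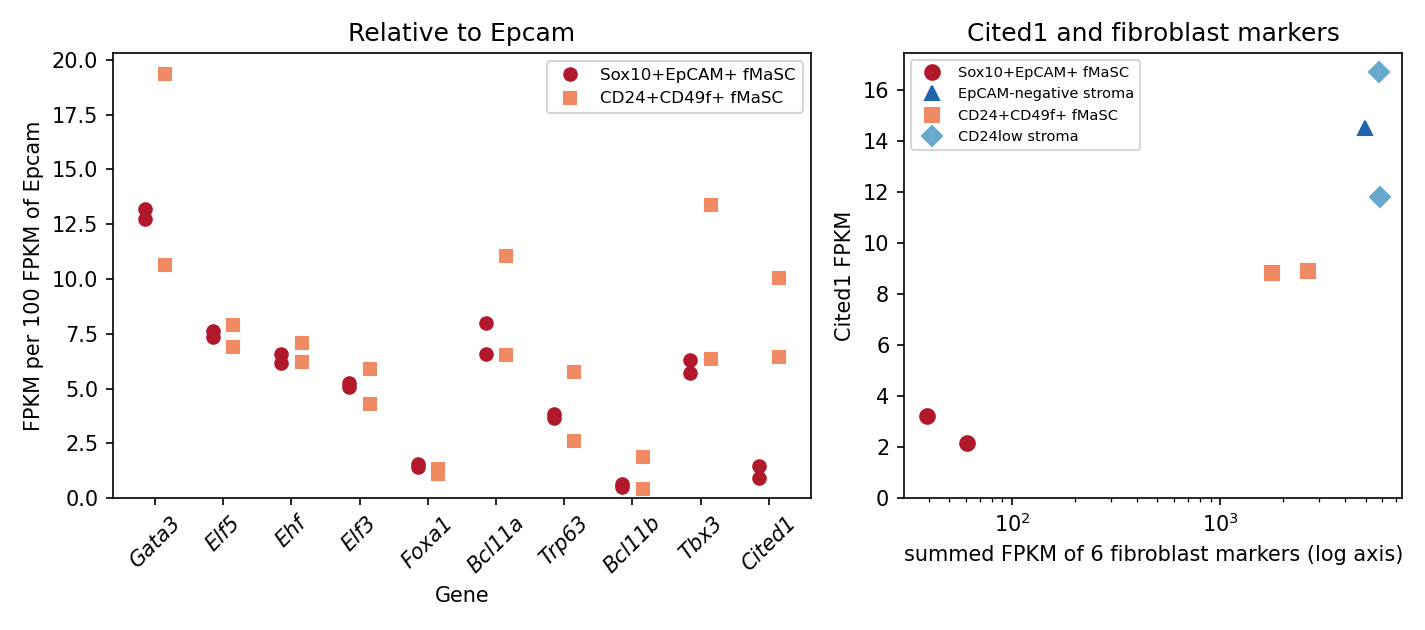
Left, FPKM of each factor per 100 FPKM of Epcam in the 4 fMaSC libraries. Foxa1, Tbx3 and Cited1 do not overlap between the fractions, and the share of all genes that do not was not computed. Right, Cited1 FPKM against the summed FPKM of 6 fibroblast markers (log axis) in all 7 libraries; the CD24+CD49f+ libraries, at 1774 and 2658, lie between the other fMaSC fraction and stroma.

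The difference between fMaSC and stroma was compared between the sorts directly. With limma 0 of the 10 members passed in either direction, while 0.0763% of all genes were higher and 1.44% lower in the EpCAM sort relative to the CD24 sort. At an unadjusted p below the threshold 4 members were higher (Elf3 by 1.04, Elf5 by 1.04, Foxa1 by 0.89 and Ehf by 0.88) and 1 lower (Cited1, −1.47, limma adjusted p = 0.149). Without CD24+CD49f+ replicate 1 the Elf5 difference was 1.41 and passed (adjusted p = 0.0319, against up to 0.863 under other alternatives). The EpCAM sort has 1 stroma library, whose spread was taken from the other groups. Sorting strategy and any batch cannot be told apart here either.

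Other factors of the same programmes did not all follow. Of 14 further adult luminal factors 13 were tested, and over both sorts 5 were higher and 4 lower in fMaSC, where 15.6% of all genes were higher and 9.5% lower. The median difference was 0.19 against 0.12 for all genes. With limma 4 were higher and 0 lower in the CD24 sort (3 lower at an unadjusted p below the threshold), and in the EpCAM sort, with its 1 stroma library, 5 were higher and 5 lower. Tfap2c, an AP-2 factor, was higher by 4.84 (44.5, 43.9, 22.2 and 26.5 FPKM in fMaSC, at most 0.154 in stroma), Myb by 3.26 and Runx1 by 2.20. The oestrogen receptor gene Esr1, which works with Foxa1 in adult hormone-sensing cells, was lower (−1.39), as were Notch3 (−1.12) and Xbp1 (−0.83). In the CD24 sort alone these 3 did not pass (limma adjusted p = 0.15, 0.155 and 0.0896). Esr1 had 0.0917 and 0.0822 FPKM in the Sox10+EpCAM+ libraries, 1.15 and 2.23 in CD24+CD49f+ fMaSC and 2.68 to 4.92 in stroma. Of 11 further basal factors 10 were tested, 5 being higher and 1 lower, with a median of 0.10 (by limma 3 and 0 in the CD24 sort, with 1 lower at an unadjusted p below the threshold, and 4 and 2 in the EpCAM sort). Sox10, on which 1 sort was made, was higher by 5.33, Id4 by 1.66 and Irx4 by 1.54, and Mef2c was lower (−1.35). In the CD24 sort alone Mef2c did not pass (−0.61, limma adjusted p = 0.113). Of the contractile genes of the adult basal layer Myh11 was lower (−2.45) and Acta2 did not pass (−0.59, limma adjusted p = 0.291).

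Of 12 factors of the embryonic placode and bud 10 were tested, 2 being higher and 5 lower over both sorts, against 15.6% and 9.5% of all genes, with a median of −1.44. In the CD24 sort 2 were higher and 3 lower (median −0.71), and in the EpCAM sort 2 were higher and 6 lower (median −2.28). The AP-2 genes Tfap2a (3.33) and Tfap2b (3.31) were higher in fMaSC. Hoxc6 (−2.00), Tbx18 (−1.87) and Tbx2 (−1.84) were lower, while the T-box member Tbx3 did not pass (0.57, limma adjusted p = 0.176). In the CD24 sort alone Hoxc6 (−0.80, adjusted p = 0.133) and Tbx18 (−0.87, adjusted p = 0.115) did not pass, and Tbx2 did (−0.94, adjusted p = 0.0324). Of 15 close relatives of the members 9 were tested, 3 being higher and 2 lower, with a median of 0.16 (by limma 1 and 0 in the CD24 sort, with 2 lower at an unadjusted p below the threshold, and 3 and 3 in the EpCAM sort). Cited4 (0.98), the ETS gene Elf1 (0.95) and Trp53 (0.63), a relative of Trp63, were higher. Gata6 (−2.10) and Tbx5 (−1.34) were lower. In the CD24 sort alone neither passed (−1.05 and −0.81, limma adjusted p = 0.0935 and 0.167). Elf1 and Trp53 did not pass there either (limma adjusted p = 0.222 and 0.204), while Cited4 did. Gata6 had 0.143 and 0.121 FPKM in the Sox10+EpCAM+ libraries, 4.70 and 9.64 in CD24+CD49f+ fMaSC and 13.4 to 17.0 in stroma, the reverse of Gata3. Of 15 structural genes of either layer 15 were higher over both sorts, and 14 in each sort alone, with a median of 3.94. Krt8 (5.93), Krt18 (5.75) and Cldn4 (5.38) led. The list did not hold the contractile genes Myh11 and Acta2 of the basal layer, which were not higher. Several of its genes, such as Krt5 and Cdh3, reached 1 FPKM in fMaSC libraries alone and so were bound to be higher there.

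The genes whose log2 values followed each factor most closely over the 7 libraries were sought among 9148 genes. Gata3 was followed by Cdh1, the epithelial cadherin (Pearson's r = 1.00), the Notch ligand gene Dll1 and Ptpru (both 0.999). Ehf was followed by Mboat2, Pkp3 (a desmosome protein) and Espn (r at least 0.999), and Elf5 by Plpp2 (0.999), the basal keratin gene Krt17 (0.998) and Bex1 (0.998). Trp63 was followed by Tmem183a, Wipf3 and Ctnnd2 (0.999 each), and Cited1 by Uba7 (0.999), Ccm2 (0.996) and Ptn (0.995). The fMaSC and stroma libraries lie apart, so these values mainly reflect that gap and are given as a description.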

How the data were processed

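RNA from 7 sorted populations was sequenced as paired ends with TruSeq RNA kits, per the labels' protocols. The submitters' processing notes name the aligner STAR, the quantifier Cufflinks and the build GRCm38 (mm10); versions and the use of strand are not given in the sources used here. The authors deposited FPKM, per the file headers, in 1 column per library and without counts, so depth was estimated from how low values step by whole fragments (65.1% to 74.2% of such values lay within 0.15 of a whole number). The labels call the libraries biological replicates. For Sox10+EpCAM+ replicate 1 the column name, but not the title, gives it as lineage-negative. An overexpression experiment named in the growth protocol is not analysed here.

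Symbols in the table are in mixed case, so entries were named by Ensembl identifier from GENCODE vM21 (36664 of 38579), and 8 added sequences (reporters and spike-ins) were left out of the tests. The 14418 genes that reached 1 FPKM in 2 or more libraries were tested on log2(FPKM + 1) with limma 3.58.1 in R 4.3.3. The fit held the 4 group means with a variance trend and 3 residual degrees of freedom, or, over both sorts, cell type plus strategy with 4. P-values were two-sided and adjusted by Benjamini-Hochberg (threshold 0.05), and the method was checked on simulated data. Intervals cover 95%. Besides the 10 members, each list gave the text up to 3 called genes in either direction, by the size of the difference over both sorts, and the 3 genes most like a member by Pearson's r, among tested genes with 5 FPKM in at least 1 library. Sums of markers and ratios to Trp63 or Epcam are of FPKM. The members, lists and tests were chosen with earlier results of these data known. Other software was Python 3.11.15 with numpy 2.4.6, pandas 2.3.3 and, for figures, matplotlib 3.10.9. TMM factors (trimmed mean of M values) were computed from the FPKM values. Alternatives were other pseudocounts, filters and scalings, no variance trend, only the groups compared, and leaving out each library.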

Additional observations from a re-analysis of the deposited data

Results flagged for a closer look

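Among the added sequences, which belong to no comparison above, 2 had signal in the Sox10+EpCAM+ libraries above the level in stroma. The sequence named mL1-GFP_reporter stood at 21.2 and 21.9 FPKM there, at most 0.0679 in stroma and at most 0.00594 in CD24+CD49f+ fMaSC. The sequence named spliced_GFP stood at 202 and 211 FPKM there, at most 0.66 in stroma and at most 0.071 in CD24+CD49f+ fMaSC. This fraction was sorted on a Venus reporter. No group has enough libraries to test for a single outlying library.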

How the results depend on the processing

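No paired analysis was possible because the labels pair no libraries. No member has a repeated entry, so summing entries was not run, and the EpCAM sort and the difference between sorts could not be fitted without the only EpCAM-negative library. Fitting only the groups compared was not run for the pooled comparison or the difference, which use all groups. Without EpCAM-negative stroma the pooled comparison rests on the CD24 sort alone, and without both CD24+CD49f+ libraries on the EpCAM sort alone. Those pooled results repeat the results of that sort and are no separate evidence. Of 819 values of single members under the alternatives, 737 kept their direction and side of the threshold. Members that passed in neither fit count among these. Leaving out a library outside the groups compared cannot change a difference, so many values were bound to keep their direction. A call was lost in 69, of which 60 were between the fMaSC fractions. A further 5 gained a call and 8 changed sign, all 8 for Tbx3 or Bcl11b, which passed in none of these. Tbx3 in the EpCAM sort became −0.43 with TPM scaling (above the median of all genes, −0.63) and −0.25 without mitochondrial and globin genes. Bcl11b became −0.19 between the fMaSC fractions without CD24+CD49f+ replicate 1 (range −0.19 to 0.58 over libraries left out). Its difference between sorts became −0.14 and −0.047 with both TPM scalings, −0.23 without that library and −0.082 without CD24low stroma replicate 1 (range −0.23 to 0.54), and that of Tbx3 became 0.21 without CD24low stroma replicate 2 (range −0.94 to 0.21). The cause was not tested.

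Members called against stroma numbered 7 higher under nearly every setting: leaving out a library gave 6 to 7 in the CD24 sort, 7 in the EpCAM sort and 7 to 8 over both. Without both CD24+CD49f+ libraries, an alternative chosen after seeing the data, the EpCAM sort kept 7 higher and 1 lower. Members lower over both sorts numbered 0 with no filter and 0 to 1 without a library. Between the fMaSC fractions members higher numbered 0 with a pseudocount of 0.1, a filter of 5 FPKM or either TPM scaling, 1 with no filter or only the groups compared, 3 with TMM or no variance trend, and 0 to 5 without a library. Members lower there numbered 0 with no filter or TPM, and 0 to 1 without a library. In the difference between sorts 0 to 1 were higher.

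Genes called in the CD24 sort numbered 1545, and 971 with a filter of 5 FPKM, 556 and 807 with the TPM scalings, 839 with only the groups compared and 426 to 2353 without a library. In the EpCAM sort they numbered 3762, and 2487, 2213, 2506 and 7436 under the same settings, 5840 without both CD24+CD49f+ libraries and 1674 to 5758 without a library. Over both sorts they numbered 3621, and 1604 and 2150 with the TPM scalings, 5840 without both CD24+CD49f+ libraries and 1563 to 6374 without a library. Between the fMaSC fractions they numbered 1440, and 724 with no filter, 893 with a filter of 5 FPKM, 531 and 727 with the TPM scalings, 882 with only the groups compared and 269 to 2509 without a library. For the difference between sorts they numbered 218, and 421 and 59 with pseudocounts of 0.1 and 5, 59 and 120 with the TPM scalings, 104 with quantile scaling and 4 to 974 without a library. The share of calls that were higher moved from 72.6% to 61.9% (TMM) and 52.6% (quantile) in the CD24 sort, from 47.9% to 26.8% and 30.3% (TPM) in the EpCAM sort, from 62.2% to between 44.1% and 49.4% (TPM, TMM, quantile) over both, from 19.5% to 2.45%, 3.58% (TPM) and 39.2% (quantile) between fractions, and from 5.05% to 15.3% (TPM) for the difference.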
